A study of Mus musculus with 21 samples.

Results

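The genes described are the connexins of the developing mouse heart, Gja5 (connexin 40), Gja1 (connexin 43), Gjc1 (connexin 45), Gja4 (connexin 37) and Gja3 (connexin 46). They were taken by symbol, 5 of the 24509 genes measured, and all 5 were found at both stages. RNA was sequenced from hearts of CD1 embryos homozygous for recombined Chd4 alleles (Chd4 Δflox/Δflox, called null here) and from hearts homozygous for the unrecombined alleles (Chd4 flox/flox, called flox). There were 5 null and 5 flox libraries at embryonic day (E) 9.5, made from 200 ng of RNA each, and 3 null and 3 flox libraries at E10.5, made from 300 ng each. All groups carry floxed alleles. The recombinase, the cells in which it acts and the number of hearts in each library are not given in the sources used here. CHD4 is the ATPase of the NuRD chromatin remodelling and deacetylase complex, and its binding was mapped in wild-type CD1 hearts at E10.0. The question addressed is which connexin transcripts differ in hearts that lose CHD4, and at which stage.

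Connexins assemble in the membrane as rings of subunits, and rings of neighbouring cells dock to form gap junction channels that pass ions and small molecules. In the heart these channels carry the electrical impulse from cell to cell. In mouse hearts connexin 40 is known as a fast-conducting channel of atrial and early trabecular myocardium, of the ventricular conduction system and of arterial endothelium, and connexin 43 as the main channel of working ventricular myocardium. Connexin 45 is the earliest cardiac connexin and persists in nodal tissue, connexin 37 is a channel of endothelium and endocardium, and connexin 46 is best known from the lens.

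Among the 4 members that could be tested, Gja5 was the single one that passed the test, and it fell in null hearts at both stages. It had 17.2 ± 3.59 RPKM (reads per kilobase of gene per 1000000 reads) in null hearts and 42.0 ± 7.67 RPKM in flox hearts at E9.5 (SD, n = 5 each). At E10.5 it had 9.76 ± 1.72 RPKM in null hearts and 44.2 ± 5.20 RPKM in flox hearts (SD, n = 3 each). Gja1, Gjc1 and Gja4 did not pass at either stage, and Gja3 lay below the level needed for a test. The share of all tested genes that passed was 17.2% at E9.5 (10.3% lower in null hearts) and 2.07% at E10.5 (0.305% lower).

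The targeted gene, Chd4, had 40.7 to 48.8 RPKM in null hearts and 91.2 to 94.6 RPKM in flox hearts at E9.5, and 48.2 to 57.4 RPKM in null hearts and 67.2 to 91.1 RPKM in flox hearts at E10.5. Depth, in units of 1000000 reads, was 17.1 to 20.1 in null and 19.6 to 23.5 in flox libraries at E9.5, and at E10.5 it was 18.0 to 18.9 in null and 17.3 to 18.0 in flox libraries. Libraries null 1, flox 1 and flox 3 of E9.5 stood apart by low epicardial transcripts, with a mean log2 level of 3.01 in null 1, 2.40 in flox 1 and 3.28 in flox 3, whereas the remaining libraries of that stage had 3.77 to 4.59. All 10 erythroid genes rose in null hearts at E9.5 (limma, adjusted p under 0.05) and took 1.74 to 4.70% of the reads in null libraries and 0.688 to 1.75% in flox libraries. Over all tested genes 6.87% rose at E9.5, and 2.07% passed in either direction at E10.5. At E10.5 none of the 10 passed (limma; 0 higher, 0 lower by an unadjusted p under 0.05; 0 by voom), with 2.91 to 8.78% of the reads in null libraries, the highest in null 3, and 1.51 to 4.28% in flox libraries. By Xist, 2 of 5 null and 4 of 5 flox libraries at E9.5, and 1 of 3 null and 2 of 3 flox libraries at E10.5, were read as female.

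Gja5 lies on chromosome 3 (GRCm38.p6, chr3:97032402-97053634). Its promoter is shown because Gja5 is the member that changed, and those of Gja1 and Gja4 because each held a CHD4 peak in 1 of the 3 peak lists (described with the other peaks). Each runs from 250 bases before the annotated start to 50 after it, as in RefSeq (GRCm38.p6), and is written along the gene's own strand. Capitals mark matches to a core of NK2 factors such as NKX2-5 (AAGTG), to a GC box of SP factors (GGGCGG) and to a GATA motif (AGATAA), the last read as its reverse complement in Gja1. A T-box motif (AGGTGT) was searched too. All were searched on both strands, and no matches overlapped.
Gja5, chr3:97032152-97032451, plus strand: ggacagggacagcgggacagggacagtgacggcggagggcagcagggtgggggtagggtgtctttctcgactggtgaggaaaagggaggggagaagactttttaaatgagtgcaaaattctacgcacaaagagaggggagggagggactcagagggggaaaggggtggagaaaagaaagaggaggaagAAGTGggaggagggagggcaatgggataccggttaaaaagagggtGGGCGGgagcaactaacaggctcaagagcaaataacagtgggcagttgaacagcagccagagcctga
Gja1, chr10:56377050-56377349, plus strand: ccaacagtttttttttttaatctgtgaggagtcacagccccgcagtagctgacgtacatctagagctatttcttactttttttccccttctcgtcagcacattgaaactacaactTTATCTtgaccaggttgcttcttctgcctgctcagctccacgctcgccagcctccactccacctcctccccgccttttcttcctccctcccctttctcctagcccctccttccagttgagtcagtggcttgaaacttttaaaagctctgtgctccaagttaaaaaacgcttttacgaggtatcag
Gja4, chr4:127313990-127314289, minus strand: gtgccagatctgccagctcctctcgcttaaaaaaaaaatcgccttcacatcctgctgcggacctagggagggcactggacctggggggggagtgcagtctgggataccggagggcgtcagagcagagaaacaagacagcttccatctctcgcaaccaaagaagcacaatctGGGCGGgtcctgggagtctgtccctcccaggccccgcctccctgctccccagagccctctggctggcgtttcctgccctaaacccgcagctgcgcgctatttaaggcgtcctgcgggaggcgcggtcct
The Gja5 window held the NK2 core 62 bases before the start and the GC box 17 bases before it. The Gja4 window held the GC box 79 bases before the start, and the Gja1 window held the GATA motif on the other strand, 135 bases before it. Of 32851 mouse promoters of this length, 46.4% held the NK2 core, 35.7% the GC box, 11.2% the GATA motif and 13.7% the T-box motif. Of these members' windows, the T-box motif was found in 1 of the 2 annotated for Gja3.

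At each stage, all null libraries held less connexin 40 transcript than any flox library. At E9.5 Gja5 had 15.4, 22.8, 18.3, 13.3 and 16.3 RPKM in null libraries 1 to 5, against 34.1, 48.3, 33.9, 50.1 and 43.7 RPKM in flox libraries 1 to 5. The highest null library, null 2, stayed below the lowest flox library, flox 3. On log2(RPKM + 0.5) the difference was -1.27 (SE 0.152, 95% interval -1.60 to -0.93), with an adjusted p of 0.000465 in limma over 13643 genes. Of those genes 17.2% passed the test, 10.3% as lower and 6.87% as higher in null hearts. The groups did not overlap for 14.1% of them, with every null library below every flox library for 8.57% and above for 5.5%.

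At E10.5 Gja5 had 7.79, 10.9 and 10.6 RPKM in null libraries 1 to 3, against 45.2, 38.6 and 48.9 RPKM in flox libraries 1 to 3. These values rest on 446 to 655 reads in null libraries and 2209 to 2693 reads in flox libraries. The groups were far apart, and the lowest null library was null 1. Transcripts of 6 foregut and liver genes took 0.00447, 0.269 and 0.181% of the reads in null libraries 1 to 3, against 0.000528, 0.0352 and 0.00149% in flox libraries 1 to 3, and their part in the Gja5 difference was not tested. Null 1, lowest of the null libraries in these transcripts, was also lowest in Gja5. Of the flox libraries, flox 2 was highest in these transcripts and lowest in Gja5, and flox 3 was above flox 1 in both. The difference was -2.13 (SE 0.174, 95% interval -2.53 to -1.73), with an adjusted p of 0.00149 in limma over 14100 genes. Of these genes 2.07% passed, 0.305% as lower and 1.77% as higher in null hearts. With 3 libraries a group, 31.3% had groups that did not overlap, 17.4% with null below flox and 13.9% with null above flox. In the authors' deposited tables, whose log2 fold change is of flox over null, Gja5 had 1.13 with an adjusted p of 6.17e-14 at E9.5 and 2.01 with an adjusted p of 1.28e-26 at E10.5, ranks 97 of 3094 and 11 of 1357 listed genes.

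**Figure D1:**
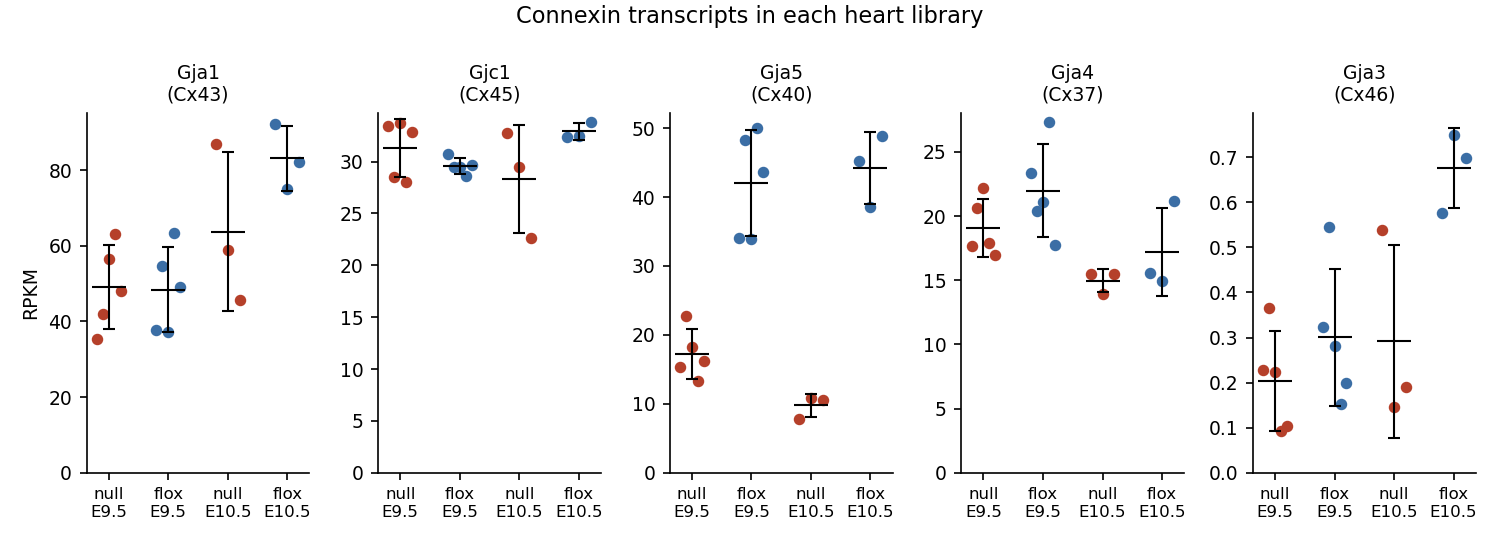
RPKM of each connexin gene (vertical axis, from 0) in every heart library, null in red left of flox in blue at each stage; points are libraries, the black bar is the mean and the whiskers 1 SD (n = 5 each at E9.5, 3 each at E10.5). Gja5 is the tested gene whose null points (7.79 to 22.8 RPKM) lie wholly below its flox points (33.9 to 50.1 RPKM), and Gja3 stays under 1 RPKM in every library.

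Gja5 was lower by more at E10.5 than at E9.5, but the difference between stages missed the threshold. It was -0.86 (SE 0.244, 95% interval -1.38 to -0.35) with an adjusted p of 0.0549 in a limma fit of all 16 libraries, where 4.04% of 13418 genes passed, 1.42% in this direction and 2.62% in the other. Over 31 other settings the adjusted p ran between 0.0312 and 0.173, and without null 4 of E9.5 (0.0353) or without null 2 of E10.5 (0.0312) it passed. Flox hearts averaged 42.0 RPKM of Gja5 at the earlier and 44.2 RPKM at the later stage. Levels at the 2 stages come from separate tables and are set side by side without a test.

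In whole hearts, fewer cells that make Gja5 and less Gja5 RNA in each cannot be told apart. Of 10 cardiomyocyte genes 3 fell and none rose at E9.5, where 10.3% of all tested genes fell and 6.87% rose, and their summed level was 11851 to 15724 RPKM in null hearts and 15159 to 18675 RPKM in flox hearts. At E10.5 none of the 10 passed (limma; 1 lower, 0 higher by an unadjusted p under 0.05; 1 by voom), with sums of 10174 to 13761 RPKM in null hearts and 6968 to 12938 RPKM in flox hearts. Of 5 arterial endothelial genes 1 fell at E9.5 (Hey1), with sums of 98.9 to 109 RPKM in null hearts and 111 to 131 RPKM in flox hearts, and none passed at E10.5 (1 higher, 1 lower by an unadjusted p under 0.05; 0 by voom), with 64.2 to 123 RPKM in null hearts and 87.6 to 114 RPKM in flox hearts. None of these genes was at 0 in any library. The arterial sums at E9.5 include Hey1, which had 22.8 to 25.0 RPKM in null hearts and 32.1 to 38.9 RPKM in flox hearts.

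With the mean level of the cardiomyocyte genes in the fit, Gja5 differed by -1.29 at E9.5 (SE 0.292) but lost the call (limma, adjusted p 0.124), and with the erythroid level it differed by -1.02 (SE 0.270, limma, adjusted p 0.203). At E10.5 the call held with both and was lost with the epicardial level, a fit chosen after the values were seen (-2.39, SE 0.337, limma, adjusted p 0.159). The call held at both stages with the endothelial level, with library sex as a covariate and without each library in turn, and at E9.5 without null 1, flox 1 and flox 3 together (-1.42, limma, adjusted p 0.00214).

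Connexin 43 was the most abundant connexin per length in every group, and no difference was detected between null and flox hearts. Gja1 lies at chr10:56377300-56390419 (GRCm38.p6). At E9.5 it had 35.4, 41.9, 56.4, 63.2 and 48.1 RPKM in null libraries, against 37.6, 54.7, 37.2, 63.5 and 49.1 RPKM in flox libraries. The 2 groups covered nearly the same range, and the difference was 0.02 (SE 0.182, 95% interval -0.38 to 0.42, limma, adjusted p 0.955). At E10.5 it had 86.8, 58.8 and 45.6 RPKM in null libraries, against 92.2, 75.0 and 82.0 RPKM in flox libraries. Null 1 lay among the flox libraries and the other two null libraries below them, and the difference was -0.43 (SE 0.232, 95% interval -0.96 to 0.11, limma, adjusted p 0.302).

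Connexin 45, the channel of the earliest heart tube, held a narrow range in flox hearts and a wider one in null hearts. The SD over null libraries was 2.79 RPKM at E9.5 and 5.18 RPKM at E10.5, against 0.753 and 0.805 RPKM over flox libraries. Gjc1 lies at chr11:102799477-102819686. At E9.5 it had 33.4, 28.5, 33.7, 28.1 and 32.9 RPKM in null libraries, against 30.7, 29.5, 29.5, 28.6 and 29.7 RPKM in flox libraries. Null libraries lay on both sides of the flox ones, which spread by 0.753 RPKM (SD), and the difference was 0.08 (SE 0.0626, 95% interval -0.06 to 0.21, limma, adjusted p 0.433). At E10.5 it had 32.8, 29.5 and 22.6 RPKM in null libraries, against 32.4, 32.5 and 33.8 RPKM in flox libraries. Null 3 was the low one, and the difference was -0.23 (SE 0.164, 95% interval -0.61 to 0.14, limma, adjusted p 0.419).

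Connexin 37, the endothelial channel, lay slightly lower in null hearts on average, within the spread of libraries. Gja4 lies at chr4:127311420-127314039, within 100 kb of Gjb5. At E9.5 it had 17.6, 20.6, 22.2, 17.9 and 17.0 RPKM in null libraries, against 23.4, 20.4, 21.1, 27.3 and 17.7 RPKM in flox libraries. The groups overlapped, and the difference was -0.19 (SE 0.113, 95% interval -0.44 to 0.05, limma, adjusted p 0.263). At E10.5 it had 15.5, 14.0 and 15.5 RPKM in null libraries, against 15.6, 14.9 and 21.1 RPKM in flox libraries, of which flox 3 was the high one. The difference was -0.18 (SE 0.168, 95% interval -0.56 to 0.20, limma, adjusted p 0.544). The summed level of 10 endothelial and endocardial genes was 314 to 358 RPKM in null hearts and 280 to 356 RPKM in flox hearts at E9.5, and 270 to 346 RPKM in null hearts and 285 to 344 RPKM in flox hearts at E10.5.

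Connexin 46 was close to background in these hearts. Gja3 lies at chr14:57034460-57058030, within 100 kb of Gjb2 and Gjb6. At E9.5 it had 0.228, 0.365, 0.224, 0.0925 and 0.104 RPKM in null libraries, against 0.322, 0.545, 0.282, 0.153 and 0.200 RPKM in flox libraries, from 5 to 18 reads in null and 9 to 37 reads in flox libraries. At E10.5 it had 0.538, 0.147 and 0.190 RPKM in null libraries, against 0.577, 0.750 and 0.699 RPKM in flox libraries, from 8 to 28 reads in null and 30 to 39 reads in flox libraries. The null libraries were all below the flox ones at E10.5, as for 17.4% of the genes tested at that stage, though null 1 nearly met flox 1. Its mean was under 0.5 RPKM at both stages, so it entered no main test. Tested without the filter its adjusted p was 0.464 for E9.5 and 0.191 for E10.5 (limma).

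**Figure D2:**
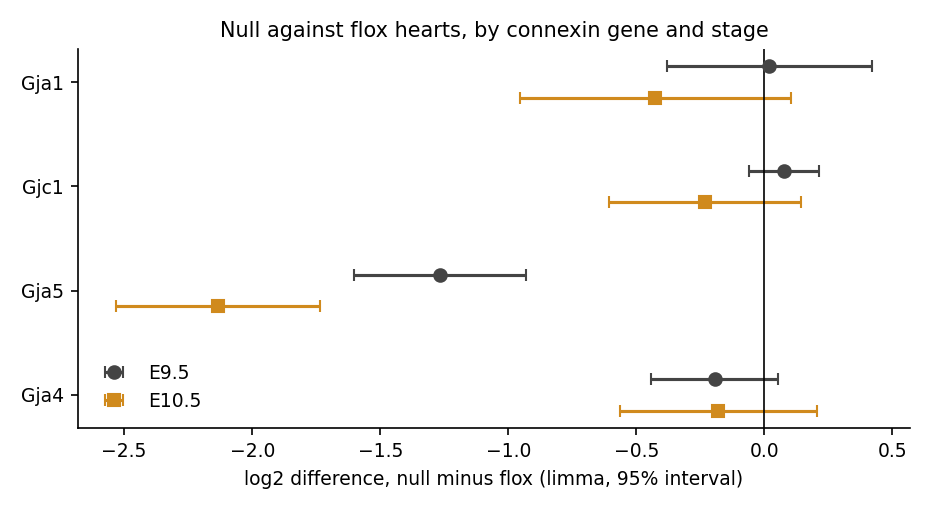
Log2 difference of null minus flox hearts (horizontal axis) for the 4 tested connexin genes, with 95% intervals from limma; circles are E9.5 and squares E10.5. The intervals of Gja5, -1.60 to -0.93 for E9.5 and -2.53 to -1.73 for E10.5, lie wholly below 0, and those of Gja1, Gjc1 and Gja4 include 0.

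For the other three tested members no difference between stages passed (limma). It was -0.44 for Gja1 (SE 0.312, adjusted p 0.380), -0.31 for Gjc1 (SE 0.143, adjusted p 0.186) and 0.01 for Gja4 (SE 0.194, adjusted p 0.972).

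The order of the connexins within a heart differed between null and flox hearts in the place of Gja5. Per length, null hearts had Gja1 first, then Gjc1, Gja4, Gja5 and Gja3, at both stages. Flox hearts had Gja1 first, then Gja5, Gjc1, Gja4 and Gja3, at both stages. Neighbours in that order did not overlap between libraries, except Gja4 and Gja5 in null hearts at E9.5 (Gja4 above Gja5 in 4 of 5 libraries) and Gja1 and Gja5 in flox hearts at E9.5 (Gja1 above Gja5 in 5 of 5). Since Gja5 was tested above, its place in the order is a description and not a further test.

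As a share of the summed RPKM of the 5 members, Gja5 made up 14.8 ± 3.28% in null hearts and 29.4 ± 1.96% in flox hearts at E9.5, and 8.75 ± 2.98% in null hearts and 24.8 ± 1.24% in flox hearts at E10.5 (SD). Gja1 made up 41.6 ± 6.58% in null hearts and 33.7 ± 3.34% in flox hearts at E9.5, and 53.6 ± 6.32% in null hearts and 46.6 ± 2.82% in flox hearts at E10.5. Shares sum to a fixed total, so one member's lower share raises the others. The summed RPKM itself was 117 ± 10.7 in null hearts and 142 ± 19.7 in flox hearts at E9.5, with overlap. At E10.5 it was 117 ± 24.7 in null hearts and 178 ± 14.2 in flox hearts, without overlap. Every null library lay below every flox library for 17.4% of the genes tested at that stage. The sum includes Gja5, which was tested above.

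**Figure D3:**
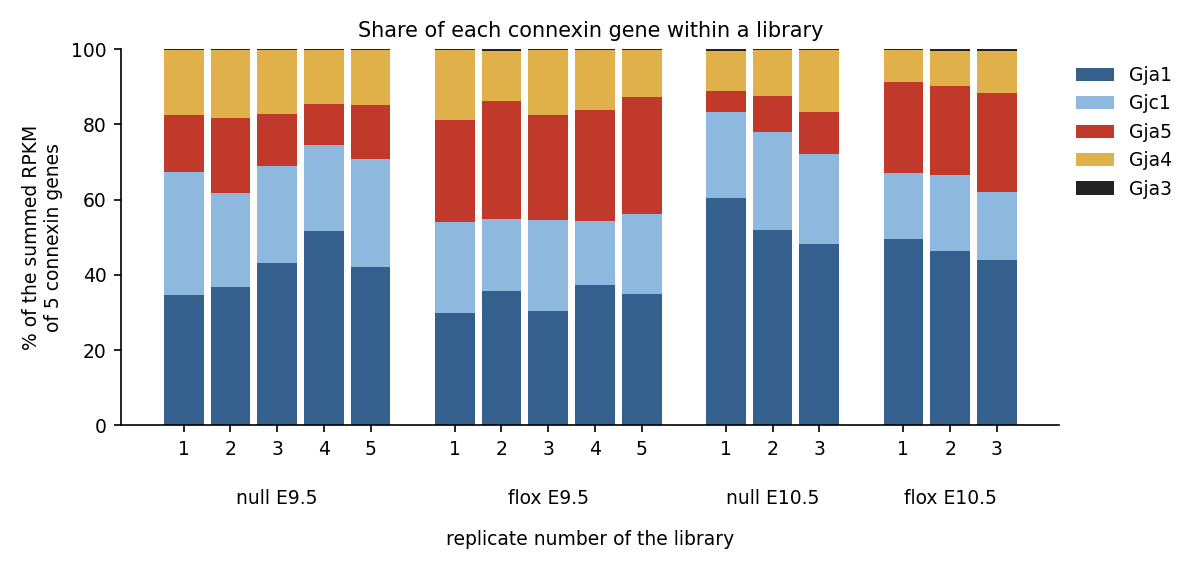
Share of each connexin gene (vertical axis, percent of the summed RPKM of the 5 genes) in each library, grouped as null E9.5, flox E9.5, null E10.5 and flox E10.5, with the replicate number under each bar. The red Gja5 part is 10.9 to 20.0% in null and 27.1 to 31.5% in flox libraries at E9.5, and 5.43 to 11.2% in null and 23.9 to 26.2% in flox libraries at E10.5.

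Ratios within a library do not depend on its total. The log2 ratio of Gja5 to Gja1 was -1.50 ± 0.512 in null hearts and -0.19 ± 0.0858 in flox hearts at E9.5, and -2.67 ± 0.717 in null hearts and -0.91 ± 0.146 in flox hearts at E10.5 (SD). In flox hearts at E9.5 this ratio was the tightest of the Gja5 ratios, ranging from -0.34 to -0.13. Gja5 was lower against Gjc1, against Gja4 and against the cardiomyocyte troponin Tnnt2, with every null library below every flox library at both stages. These ratios use the Gja5 values tested above and are a description, not a further test. Against Tnnt2 the ratio was -5.83 ± 0.228 in null hearts and -4.75 ± 0.372 in flox hearts at E9.5, and -6.59 ± 0.494 in null hearts and -4.17 ± 0.206 in flox hearts at E10.5. Gjc1 against Tnnt2 was higher in null hearts at E9.5, without overlap (-4.95 ± 0.118 against -5.23 ± 0.0817 in flox hearts), and overlapped at E10.5. Gjc1 itself did not pass at E9.5 (0.08, limma, adjusted p 0.433), and such a ratio also moves with Tnnt2. Gja1 and Gja4 against Tnnt2 overlapped at both stages.

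Against Nkx2-5, a cardiac homeobox factor, the picture differed by stage. At E9.5 the log2 ratio of Gja5 to Nkx2-5 was -1.31 ± 0.348 in null hearts and -1.48 ± 0.482 in flox hearts, with overlap, so both transcripts were lower by about the same factor. At E10.5 it was -1.31 ± 0.323 in null hearts and 0.26 ± 0.410 in flox hearts, without overlap. Gja1, Gjc1 and Gja4 against Nkx2-5, which was itself lower in null hearts at E9.5, were higher in null hearts there, without overlap. At E10.5 these ratios to Nkx2-5 overlapped. Ratios among Gja1, Gjc1 and Gja4 overlapped between null and flox hearts at both stages.

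**Figure D4:**
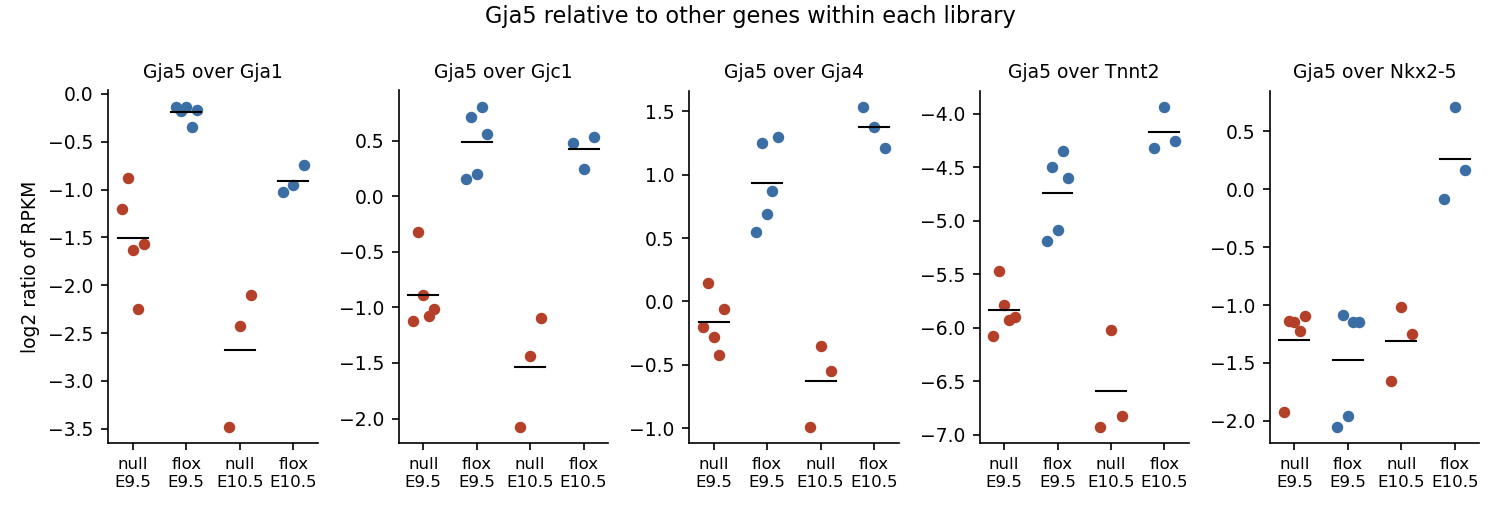
Log2 ratio of the RPKM of Gja5 to that of 5 other genes within each library (vertical axes, each with its own scale), null in red left of flox in blue; bars are group means. Null points lie below flox points in every panel and stage except for Gja5 over Nkx2-5 at E9.5, where the groups span the same range.

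Genes with the profile most like that of Gja5 over the 16 libraries, among 11491 genes of at least 1 RPKM, were Igfbpl1 (Pearson r 0.950), Nefl (0.939), Mon1b (0.929), Slitrk5 (0.926) and Cend1 (0.923). The libraries share the null and flox groups, so these coefficients mostly describe genes that are low in null hearts. After subtracting group means the coefficients were 0.39, 0.66, 0.50, 0.41 and 0.14 in the same order. Igfbpl1 had 5.64 ± 1.02 RPKM in null hearts and 18.1 ± 2.94 RPKM in flox hearts at E9.5, and 3.74 ± 0.834 RPKM in null hearts and 16.2 ± 3.64 RPKM in flox hearts at E10.5. For Gja1 the nearest profiles were Srpk2 (0.951), Tbc1d8b (0.937) and Ctbs (0.929), and these described libraries within groups, with coefficients of 0.93, 0.87 and 0.93 after group means were subtracted. For Gjc1 they were Exoc6b, Rbm41 and Exoc2 (0.865 to 0.874), and for Gja4 Obsl1, Tbc1d22b and Palm (0.811 to 0.830).

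Among 18 other connexins and pannexins, 5 could be tested at E9.5, of which 1 rose and 1 fell, with a median difference of 0.05 against -0.04 over all genes, of which 6.87% rose and 10.3% fell. Gja6, a connexin gene on the X chromosome, rose to 1.72 ± 0.770 RPKM in null hearts, against 0.650 ± 0.231 RPKM in flox hearts (0.92, SE 0.220, limma, adjusted p 0.0170). Panx2, a pannexin that forms large-pore channels and not gap junctions, fell to 2.19 ± 0.382 RPKM in null hearts, against 3.85 ± 0.303 RPKM in flox hearts (-0.70, SE 0.105, limma, adjusted p 0.00166). Both calls were lost with either the erythroid or the cardiomyocyte level in the fit. Gja6 then differed by 0.06 (limma, adjusted p 0.973 with the erythroid level), and its call was also lost with library sex as a covariate (0.0649) and without null 1, flox 1 and flox 3 (0.0604). At E10.5 6 could be tested and none passed (limma; 2 higher, 0 lower by an unadjusted p under 0.05; 0 by voom). Gjd3, a connexin of the conduction system in mouse, had 1.43 ± 0.443 RPKM in null hearts and 0.335 ± 0.129 RPKM in flox hearts there. Its difference was 1.19 (SE 0.265, limma, adjusted p 0.0664), from 14 to 27 reads in null and 3 to 7 reads in flox libraries. It met the filter of 0.5 RPKM through its null libraries, as its flox mean lay below that level.

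Gap junctions are held at cell borders by scaffold and adhesion proteins of the intercalated disc. Of 24 such partner genes, all tested at both stages, 2 rose and 5 fell in null hearts at E9.5, with a median of -0.08 against -0.04 over all genes, of which 6.87% rose and 10.3% fell. Xirp1, an actin-binding protein of the disc, fell to 32.3 ± 4.87 RPKM in null hearts, against 49.3 ± 4.07 RPKM in flox hearts (-0.61, SE 0.0986, limma, adjusted p 0.00256). Tjp1, the scaffold that binds connexin 43, had 42.0 ± 2.56 RPKM in null hearts and 43.2 ± 2.54 RPKM in flox hearts (limma, adjusted p 0.694). The call of Xirp1 held without each library in turn, whereas the calls of Cav3, Ctnna1, Src, Cav1 and Cxadr were lost without single libraries. Cav3 lost its call without null 4, null 5 or flox 5. Ctnna1 lost it without null 2, null 3, null 5, flox 1 or flox 3, and Src without null 2, null 3, flox 1, flox 3 or flox 5. With 1 of the 10 libraries left out, Cav1 passed when that library was null 4, flox 1 or flox 3 and not otherwise, and Cxadr when it was null 1, null 2 or flox 2 and not otherwise. All these calls, that of Xirp1 included, were lost with either the erythroid or the cardiomyocyte level in the fit, and those of the genes other than Xirp1 also with library sex as a covariate.

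At E10.5 1 of the 24 fell and none rose, with a median of -0.12 against -0.03 over all genes, of which 0.305% fell and 1.77% rose. This was Cav1, the coat protein of caveolae, with 17.5 ± 2.89 RPKM in null hearts and 33.6 ± 4.94 RPKM in flox hearts (-0.93, SE 0.177, limma, adjusted p 0.0398), and the call was lost without any 1 of the 6 libraries (adjusted p 0.0570 to 0.193). It was also lost with the erythroid (limma, adjusted p 0.148), the cardiomyocyte (0.0778) or the epicardial level (0.298) in the fit, with library sex (0.0634), with the replicate block and without the filter on low values. Jup, plakoglobin of the disc, differed between stages (0.89, SE 0.219, limma, adjusted p 0.0366). It had 27.6 ± 3.58 RPKM in null hearts and 28.1 ± 2.54 RPKM in flox hearts at E9.5, and 26.1 ± 5.66 RPKM in null hearts and 14.2 ± 3.48 RPKM in flox hearts at E10.5. That call was lost without any of 9 of the 16 libraries, namely null 3, null 5 and flox 1 to 4 of E9.5 and null 1, flox 1 and flox 2 of E10.5, and with the cardiomyocyte level in the fit (limma, adjusted p 0.204), with arrayWeights (0.0633) and without null 1, flox 1 and flox 3 of E9.5 together (0.132).

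Of 28 genes for cardiac transcription factors and conduction, 27 were tested. At E9.5 9 fell and none rose, with a median of -0.25 against -0.04 over all genes, of which 10.3% fell and 6.87% rose. Nkx2-5 fell to 42.9 ± 11.1 RPKM in null hearts, against 117 ± 19.1 RPKM in flox hearts (-1.45, SE 0.169, limma, adjusted p 0.000389). Hopx, a homeodomain protein without DNA binding that acts in the conduction system, fell to 37.3 ± 3.53 RPKM in null hearts, against 83.3 ± 5.00 RPKM in flox hearts (-1.15, SE 0.0724, limma, adjusted p 5.48e-06). Hand1, Irx3, Mycn and Hey1 also fell, by 0.53 to 1.02 on the log2 scale, and these calls and those of Nkx2-5 and Hopx held without each library in turn. Hey2 (-0.41, limma, adjusted p 0.0260) lost its call without null 2, null 5, flox 1, flox 2 or flox 5, and Tbx5 (-0.27, limma, adjusted p 0.0498), which activates Gja5 in the mouse heart, without any library other than null 1. Hopx and Hey1 kept their calls in all 25 other settings, and Nkx2-5, Hand1, Irx3, Mycn, Hey2 and Tbx5 lost theirs with either the erythroid or the cardiomyocyte level in the fit, Hey2 and Tbx5 also with library sex.

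At E10.5 none of the 27 passed (limma; 5 lower, 0 higher by an unadjusted p under 0.05; 0 by voom), with a median of -0.29 against -0.03. Hopx had 38.9 ± 4.98 RPKM in null hearts and 82.5 ± 25.4 RPKM in flox hearts (-1.03, SE 0.245, limma, adjusted p 0.0755). Nkx2-5 had 24.0 ± 1.62 RPKM in null hearts and 38.5 ± 13.1 RPKM in flox hearts (-0.61, SE 0.254, limma, adjusted p 0.205).

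CHD4 peaks were deposited as 3 lists of 84271, 60749 and 50232 peaks from 2 biological and 3 technical replicates, so the lists are not 3 independent samples. A peak of list 1 that overlapped peaks of both other lists is called shared, and there were 22824. Shared peaks lay within 5 kb of Gjc1 (2 peaks) and of Gja3 (1 peak), and of none of Gja5, Gja1 and Gja4. Such a peak lay within 5 kb of 70.7% of the tested genes with known coordinates, so 2 of 5 members is no more than the background.

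Gja5 had shared peaks beyond 5 kb, 2 of them within 50 kb of the gene. Within that distance 87.2% of the tested genes with known coordinates held a shared peak, and 72.0% held at least 2. The nearest, at chr3:97062586-97063420 (GRCm38.p6, the assembly of mm10), lay 8952 bases past the end of the gene, with the authors' peak scores of 240, 152 and 131 in lists 1, 2 and 3. A second, at chr3:97076528-97076786, lay 22894 bases past the end, with scores of 84, 109 and 46. Inside the gene list 1 had 2 peaks and list 2 had 1, with scores of 19 to 48, and list 3 had none. The promoter window of Gja5 printed above held no peak in any list.

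At Gjc1 a shared peak at chr11:102819439-102820226 spanned the upper annotated end of the gene, with scores of 157, 106 and 71, and a weaker one lay inside the gene at chr11:102814891-102815106. At Gja3, a minus-strand gene, a shared peak at chr14:57059848-57060056 lay 1818 bases upstream of the upper end, which holds the annotated start. Its scores were 40, 37 and 32. Gja1 and Gja4 each had 1 list 1 peak over the promoter window, with scores of 40 and 25, matched there by neither other list. Peaks were mapped in wild-type hearts, and whether they bear on the level of Gja5 was not tested.

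**Figure D5:**
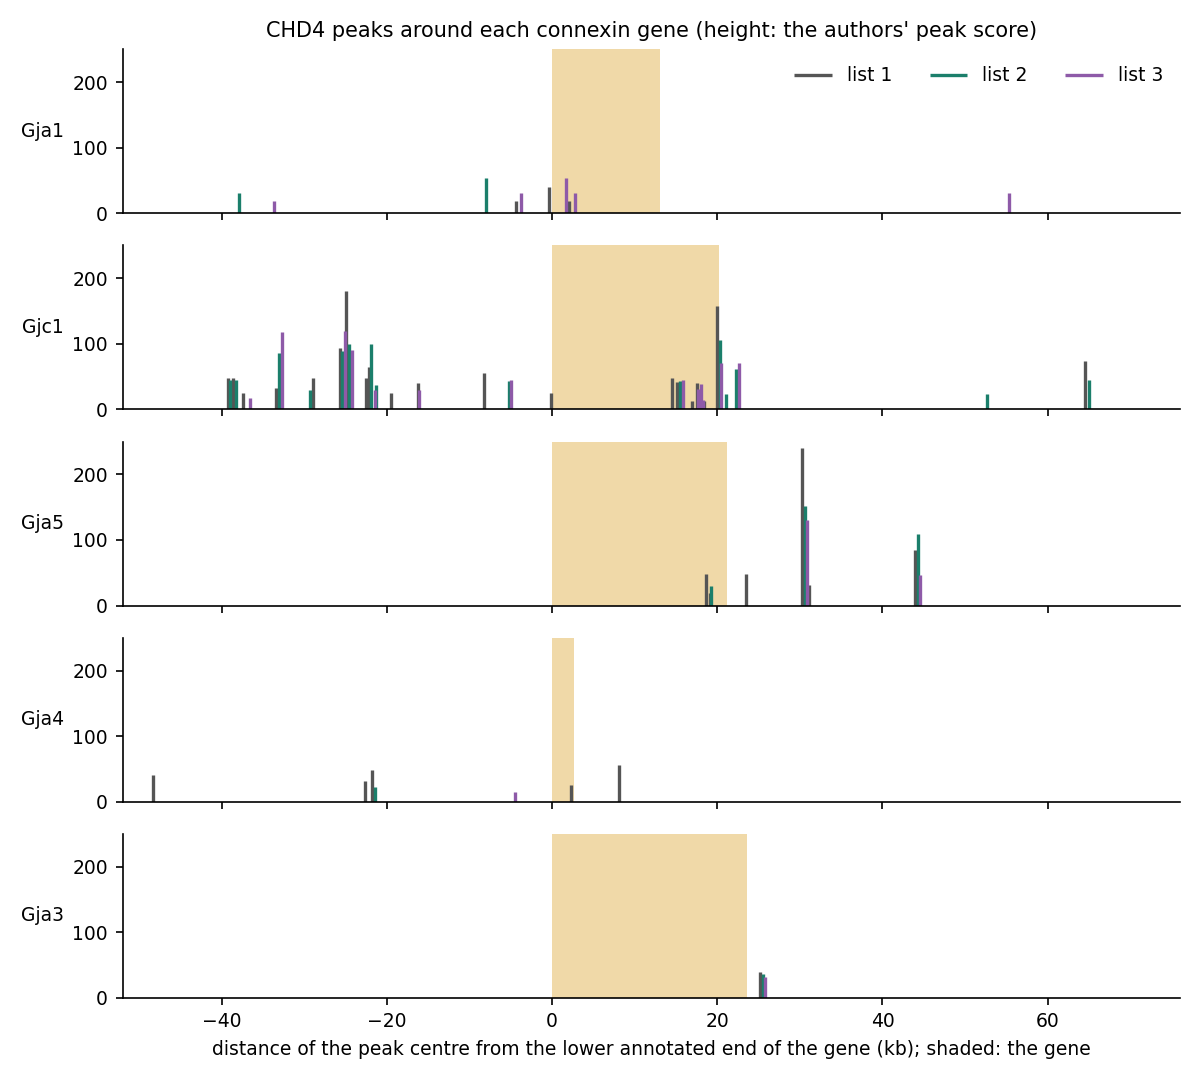
CHD4 peaks around each connexin gene, in kb from the lower annotated end of the gene (shaded), to 50 kb beyond either end; line height is the authors' peak score and colour the list, with lists 1 and 3 drawn 0.35 kb to either side of list 2 so that they can be told apart. The tallest lines, 240, 152 and 131 in lists 1, 2 and 3, lie past the upper end of Gja5, and Gjc1 has the most peaks.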

How the data were processed

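Polyadenylated RNA from 16 heart libraries was counted per gene. The RPKM values are those the authors deposited, per the file headers, and gene lengths in bp are the authors' own. RPKM times length and library size gave whole reads within 0.01 for 100% of values. The kit was stranded per the labels, but whether strand was used in counting is not stated in the sources used here, so reads of Gja5, Panx2 and Gja6 cannot be told apart from those of genes that overlap them (such as 4930573H18Rik at Gja5 and 1810021B22Rik at Panx2). The submitters' processing notes name mm10, and as tools HTSeq 0.6.2, Bowtie 1.2.0, DESeq2 1.6.3, SAMtools 1.6, MACS2 and bedtools 2.25.0. The authors' deposited log2 fold changes and adjusted p-values are given where the adjusted p was 0.05 or less. The deposited mean signal and test score of those tables were not used. The peak score is the authors' deposited whole number of unstated scale.

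For each gene log2(RPKM + 0.5), a scale that understates changes at low levels, was fitted with limma 3.58.1 in R 4.3.3 (lmFit, eBayes with a trend), where its mean in a stage was at least 0.5 RPKM, each stage alone. Tests are two-sided, and a gene passed at a Benjamini-Hochberg adjusted p under 0.05 over all genes tested. The difference between stages is an interaction in 1 fit of 16 libraries. Each library counts as a replicate per the labels, and counts of reads limit precision by counting error only. Peaks used bedtools 2.31.1, with an overlap of at least 1 bp and a window of 5 kb beyond the annotated gene, whose coordinates were found for 96.6% of tested genes. Positions and promoters are RefSeq's (GRCm38.p6), which had a promoter for 4 of 5 members, and strand came with the promoters. Other software was Python 3.11.15, numpy 2.4.6, pandas 2.3.3 and matplotlib 3.10.9.

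The members, gene lists and tests were chosen with earlier results of these data known. A few list genes are not reported here, though list counts include them. Named genes were all members, other list genes that passed, and the 5 (Gja5) or 3 (other members) genes of most similar profile; Tjp1, Gjd3 and the list genes given where they did not pass were named after their values were seen. Settings tried are given in the closing section. Those added after the values were seen are the epicardial level, library sex (Xist minus Ddx3y), leaving out null 1, flox 1 and flox 3 of E9.5 together, and leaving out each peak list. The input libraries of the binding assay were not used here.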

Additional observations from a re-analysis of the deposited data

How the results depend on the processing

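Settings varied the pseudocount (0.1, 1), the filter (none, 1 RPKM), the scaling (median, or totals without erythroid and the top 10 genes), the fit (arrayWeights, voom on the recovered reads), covariates (marker levels, library sex, a replicate block) and the libraries (each left out). Gja5 was lower in null hearts in every one of them, by -1.42 to -1.02 at E9.5 (25 settings) and by -2.39 to -1.99 at E10.5 (20), and Gja1, Gjc1 and Gja4 passed in none. The sign of the Gja1 difference at E9.5 turned between settings (-0.23 to 0.13). Gja5 lost its call at E9.5 with the erythroid level (-1.02) and the cardiomyocyte level (-1.29), and at E10.5 with the epicardial level (-2.39). Its difference between stages passed with median scaling (-0.87, limma, adjusted p 0.0420), the replicate block (-0.86, limma, adjusted p 0.0429), the erythroid level (-0.93) and the endothelial level (-0.89), and ran from -0.96 to -0.72 with each library left out. Its differences with each library left out were -1.37 to -1.18 for E9.5 and -2.23 to -1.99 for E10.5.

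Counts of all genes that passed moved more. At E9.5, against 2342, they were 3698 with the replicate block, 3549 with arrayWeights, 70 with the erythroid, 62 with the cardiomyocyte level, 1164 with sex, 1349 without the 3 low-epicardium libraries and 1537 (without null 5) to 2773 with 1 library left out. The share higher in null hearts was 40.0%, and 52.8% with median scaling. At E10.5, against 292, they were 162 without the filter, 1426 with arrayWeights, 96 with the erythroid, 124 with the cardiomyocyte, 541 with the endothelial and 2 with the epicardial level, 97 with sex, and 62 to 356 with 1 library left out. For the difference between stages, against 542, they were 1384 with the replicate block, 234 with arrayWeights, 0 with the cardiomyocyte level, 1173 with the endothelial level, 0 without the 3 libraries together, and 4 to 1796 with 1 library left out. The 0s are limma's; 3544 genes had an unadjusted p under 0.05 in the main fit. The cause of these shifts was not tested. Replicate numbers were not taken to pair the samples, since not every same-number correlation was above 0.1 (-0.14 to 0.52 for E9.5 and -0.03 to 0.11 for E10.5). Null libraries 1, 4 and 5 of E9.5 and null library 2 of E10.5 were closest to the flox library of their own number. These correlations cannot settle whether the libraries were paired, and the replicate block is the setting that takes them as paired. Members with a shared peak were 1 with a 1 kb window, where 65.6% of tested genes held one, and 3 with 50 kb, where 87.2% did. They were 2 to 3 with 1 list left out, with Gja1 among them without list 2 and Gja5 among them without list 3. Depth limits Gja3, at 5 to 39 reads.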

Other observations

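The connexins expressed at low levels held a few patterns, chosen after their values were seen. Gjd4 had 0.0189 to 0.0764 RPKM in null hearts and 0.204 to 0.525 RPKM in flox hearts at E9.5, too low for the main test. Every null library lay below every flox library, as for 8.57% of the genes tested at that stage. The authors' deposited table lists Gjd4 at E9.5 with a log2 fold change of 1.17 (flox over null) and an adjusted p of 9.54e-06. At E10.5 it had 0.0835, 0 and 0.0413 RPKM in null hearts, against 0.355, 0.209 and 0.174 RPKM in flox hearts. The authors' table of that stage does not list it. Tested without the filter its adjusted p was 0.00447 for E9.5 and 0.127 for E10.5 (limma).

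Gjb1, the main connexin of liver cells, had 0.0615, 2.05 and 5.66 RPKM in null libraries 1 to 3 at E10.5, against 0, 0.493 and 0 RPKM in flox libraries 1 to 3. The same libraries held 12.0, 865 and 728 RPKM (null) and 1.42, 148 and 0.975 RPKM (flox) of Afp, a transcript of fetal liver and yolk sac. Gjb2, also made by liver cells, had 0.485, 0.837 and 3.32 RPKM in null libraries and 0.208, 2.43 and 0.264 RPKM in flox libraries. Gjb1 was highest in null 3, null 2 and flox 2, the libraries that were also highest in Afp, and the part of attached liver tissue in these values was not tested.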
